A study of Rattus norvegicus with 5 samples.

Results

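The carnitine shuttle and the mitochondrial beta-oxidation spiral were described through 10 genes: Cpt1a, Slc25a20 and Cpt2 of the shuttle, the acyl-CoA dehydrogenases Acadvl, Acadl and Acadm, the trifunctional protein subunits Hadha and Hadhb, the dehydrogenase Hadh and the thiolase Acaa2. They were chosen for their place in the pathway, and 9 of the 10 were measured, each by 1 probe set of its own, among 7589 genes with a symbol. Hadha was not analysed here. The measurements came from livers of male rats aged 4 months and fed standard chow, either of the congenic strain PD.SHR4 (PD.SHR4a in the series text; 2 arrays) or of its progenitor, the polydactylous strain PD (3 arrays). PD.SHR4 has the PD genome except for a stretch of chromosome 4 bred in from SHR, the spontaneously hypertensive rat, a strain that lacks functional Cd36, so every SHR gene in that stretch, not Cd36 alone, separates the strains. RNA came from 8 rats per strain and its labelled cDNA was pooled by strain, so the spread between arrays may be technical and the p-values say nothing of the spread between rats. The labels used here give neither the hour at which the rats were killed nor whether they had been fasted.

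Long-chain fatty acids cannot cross the inner mitochondrial membrane as CoA esters. Cpt1a at the outer membrane moves the acyl chain to carnitine, the carrier Slc25a20 exchanges acylcarnitine for free carnitine, and Cpt2 on the matrix side remakes acyl-CoA. The spiral then shortens the chain by repeated oxidation, hydration, oxidation and thiolytic cleavage, releasing acetyl-CoA. In liver this pathway supplies acetyl-CoA for ketone bodies during fasting, and malonyl-CoA, the first committed product of fatty acid synthesis, inhibits Cpt1a.

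The promoters of 8 members, taken from RefSeq on the GRCr8 build, cover 250 bases before to 50 after each start site, and Acadl and Acaa2 had no entry. The first below is shown because Cpt1a had the largest strain difference among the members, the second because Hadhb and the unmeasured Hadha start head to head there, and the third because it holds 2 copies of AGGTCA, the core that nuclear receptors such as PPAR-alpha bind. The Hadhb window lies at chr6:31907451-31907750 on the minus strand, the Cpt1a window at chr1:209995910-209996209 on the plus strand and the Acadvl window at chr10:55236656-55236955 on the minus strand. Capitals mark the motifs that were searched for on either strand: AGGTCA, the E-box CACGTG, the GC box GGGCGG, the CCAAT box and the TATA box TATAAA.
Cpt1a: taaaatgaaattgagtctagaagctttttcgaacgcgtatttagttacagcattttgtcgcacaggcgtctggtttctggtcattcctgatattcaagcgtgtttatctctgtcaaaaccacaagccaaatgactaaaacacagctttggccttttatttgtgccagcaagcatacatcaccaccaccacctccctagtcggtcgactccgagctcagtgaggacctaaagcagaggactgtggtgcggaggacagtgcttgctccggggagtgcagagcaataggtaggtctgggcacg
Hadhb: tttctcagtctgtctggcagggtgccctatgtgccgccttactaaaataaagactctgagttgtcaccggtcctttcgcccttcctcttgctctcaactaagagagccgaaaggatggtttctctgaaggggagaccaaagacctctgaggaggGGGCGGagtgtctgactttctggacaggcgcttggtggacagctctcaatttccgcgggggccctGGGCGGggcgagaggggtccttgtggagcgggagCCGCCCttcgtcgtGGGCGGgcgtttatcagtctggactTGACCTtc
Acadvl: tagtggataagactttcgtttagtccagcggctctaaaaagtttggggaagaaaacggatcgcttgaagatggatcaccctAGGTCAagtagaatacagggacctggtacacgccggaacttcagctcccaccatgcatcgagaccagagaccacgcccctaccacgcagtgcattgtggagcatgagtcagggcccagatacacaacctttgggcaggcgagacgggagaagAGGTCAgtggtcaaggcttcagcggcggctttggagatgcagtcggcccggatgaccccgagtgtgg

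The windows of Hadha and Hadhb overlapped by 200 bases, chr6:31907551-31907750, which are the first 200 bases printed for Hadhb, and their start sites lay 301 bases apart on opposite strands. A GGGCGG in this shared stretch began 96 bases before the Hadhb start. GGGCGG was found in the windows of 6 of the 8 members (Slc25a20, Cpt2, Acadm, Hadha, Hadhb and Hadh) and in 33.1% of all 33469 promoters of this length. The only GGGCGG of the Hadha window is the one in the shared stretch, so this site counts for both genes. The GC content of the members' windows ran from 48.3% for Cpt1a to 66.7% for Cpt2, against a median of 51.7% over all promoters. AGGTCA was found in the windows of Acadvl, starting 169 and 17 bases before the start site, and of Hadhb, on the strand opposite to the gene and within the transcribed part, and in 16.2% of all promoters. A pair of AGGTCA copies spaced by 1 base, which overlaps the search for single copies, was found in no member and in 0.0538% of promoters. CACGTG (6.42% of promoters) and TATAAA (14.2%) were found in no member, and CCAAT (37.5%) in Hadha alone. These are matches of letters in short windows, and binding was not measured.

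As a check of the labels, the Cd36 probe set, which also covers its neighbour Cd36l1, measured 4.18 and 4.85 in the PD.SHR4 arrays, against 7.35, 7.83 and 7.93 in the PD arrays (log2 scale, as all levels below). Its log2 difference, PD.SHR4 minus PD throughout, was -3.19 ± 0.26 (SE, limma adjusted p = 0.0149). The difference stayed between -3.52 and -2.85 over 12 alternative fits, but the call was lost without PD array 3 (limma adjusted p = 0.0516), without PD.SHR4 array 1 (0.105) or 2 (0.130) and without variance shrinkage (0.197). Across the table, 82 of 8797 probe sets passed limma at an adjusted p under 0.05, which is 0.932%, with 24 of them, 0.273%, higher in PD.SHR4. Upper quartiles of the arrays lay between 7.38 and 7.65, and the members' values between 8.37 and 12.5, so none of the 9 was measured near the dim end of an array. Every hepatocyte marker measured (8 of 10) was bright, Alb, the serum albumin gene, at 13.2 to 13.3.

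All 9 measured genes of the shuttle and spiral had higher levels in both PD.SHR4 arrays than in any PD array, but with p adjusted over all 8797 tests, 0 of the 9 passed, against 0.932% of all probe sets. The log2 differences ran from 0.29 for Acadl to 1.37 for Cpt1a, 1.22-fold to 2.59-fold, with a median of 0.43 beside 0.00 over all probe sets. Adjusted p (limma) lay between 0.0543 for Hadhb and 0.382 for Slc25a20. At an unadjusted p under 0.05 there were 7 of the 9, all higher in PD.SHR4, against 5.84% of all probe sets. This last share includes dim probe sets and was not worked out for bright ones alone. Both PD.SHR4 arrays lay above all PD arrays in 14.8% of all probe sets, and in 25.9% of the 1067 whose mean level was at least that of the lowest member (8.95). The 9 values share the same 5 arrays, so they are not independent of one another.

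**Figure D1:**
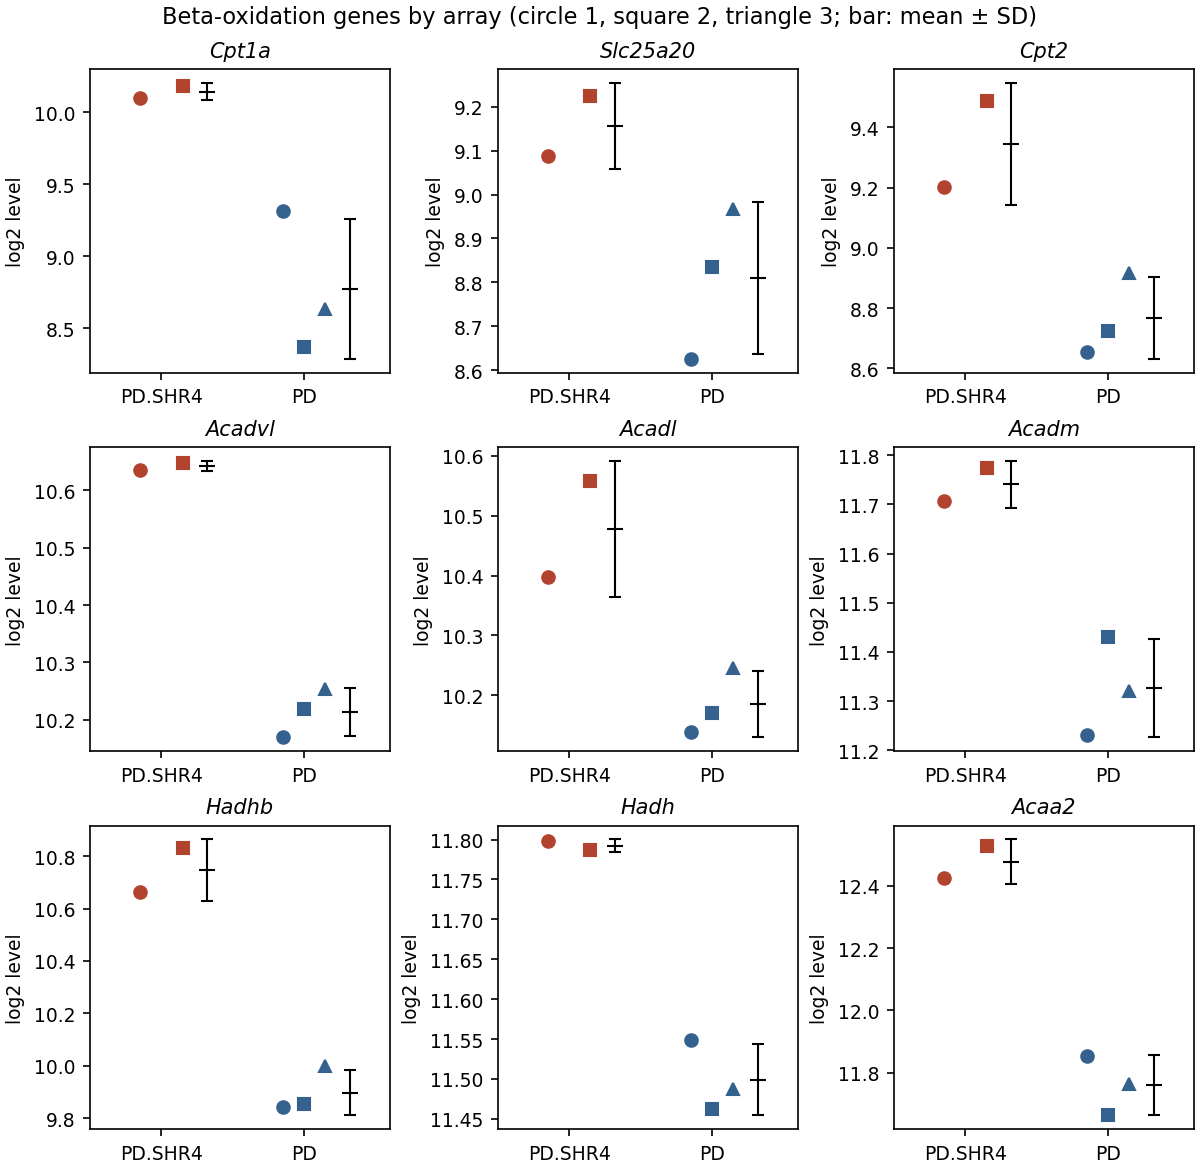
Log2 level (vertical axis, 1 scale per panel) of each measured member in the PD.SHR4 arrays (red) and PD arrays (blue); circles, squares and triangles are arrays 1, 2 and 3, and the bar is the mean ± SD. In each of the 9 panels both PD.SHR4 arrays lie above the 3 PD arrays, and Cpt1a has the widest PD spread.

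Within the carnitine shuttle, Cpt1a, the liver form of the outer acyltransferase and the step that malonyl-CoA controls, measured 10.10 and 10.18 in the PD.SHR4 arrays, against 9.31, 8.37 and 8.63 in the PD arrays. The PD.SHR4 arrays were close together, while PD array 1 stood above the other PD arrays, at an SD of 0.49 for PD and 0.06 for PD.SHR4. The log2 difference was 1.37 ± 0.28 (SE; 95% confidence interval 0.68 to 2.06; limma adjusted p = 0.103). Without PD array 1 it was 1.64 and passed (limma adjusted p = 0.0413), and with the replicate number as a block it was 1.303 and passed (limma adjusted p = 0.0411). In the block fit PD array 3 has no partner, so the difference comes from arrays 1 and 2 alone. Without PD array 3 and without a block it was likewise 1.303 and did not pass (limma adjusted p = 0.284). Over its 12 alternative fits the adjusted p (limma) ran from 0.00956 to 0.476.

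Slc25a20, the carrier in the inner membrane, measured 9.09 and 9.23 in the PD.SHR4 arrays, against 8.63, 8.83 and 8.97 in the PD arrays. The gap between the lowest PD.SHR4 and the highest PD array was 0.12, the smallest among the 9 members, beside SDs of 0.10 in PD.SHR4 and 0.17 in PD. The log2 difference of 0.35 ± 0.15 (SE; 95% confidence interval -0.01 to 0.71; limma adjusted p = 0.382) included 0.

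Cpt2, the acyltransferase on the matrix side, measured 9.20 and 9.49 in the PD.SHR4 arrays, against 8.66, 8.73 and 8.92 in the PD arrays. Its log2 difference was 0.58 ± 0.15 (SE; 95% confidence interval 0.21 to 0.95; limma adjusted p = 0.171). The log2 ratio of Cpt1a over Cpt2 within an array, which shows unequal change and no ratio of amounts, was 0.90 and 0.70 in PD.SHR4, against 0.65, -0.36 and -0.28 in PD. It was higher by 0.79 in PD.SHR4 (exact permutation test, two-sided, p = 0.2, the smallest that 2 against 3 arrays allow), and the ratio in PD array 1 lay close below that of the lower PD.SHR4 array. The corresponding ratio of Hadhb over Hadha was not analysed here.

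The acyl-CoA dehydrogenases, which carry out the first oxidation and differ in the chain length they prefer, had log2 differences between 0.29 and 0.43. Acadvl, the membrane-bound very-long-chain enzyme, measured 10.64 and 10.65 in the PD.SHR4 arrays, against 10.17, 10.22 and 10.25 in the PD arrays. Its SDs, 0.01 in PD.SHR4 and 0.04 in PD, were small beside its log2 difference of 0.43 ± 0.11 (SE, limma adjusted p = 0.169).

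Acadm, the medium-chain enzyme, measured 11.71 and 11.77 in the PD.SHR4 arrays, against 11.23, 11.43 and 11.32 in the PD arrays (log2 difference 0.41 ± 0.12 SE, limma adjusted p = 0.212). Acadl, the long-chain enzyme, measured 10.40 and 10.56 in the PD.SHR4 arrays, against 10.14, 10.17 and 10.25 in the PD arrays (log2 difference 0.29 ± 0.12 SE, limma adjusted p = 0.364). Beside standard errors of 0.11 to 0.12, the differences of the 3 dehydrogenases, 0.29 to 0.43, were close to one another. The 95% confidence interval for Acadl, 0.00 to 0.59, reached 0, and those for Acadvl (0.16 to 0.70) and Acadm (0.12 to 0.71) did not.

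Hadhb is the beta subunit of the trifunctional protein, the membrane-bound complex that finishes the cycle on long chains, and carries its thiolase. It measured 10.66 and 10.83 in the PD.SHR4 arrays, against 9.84, 9.85 and 9.998 in the PD arrays. The strains were separated by 0.67, while the SDs were 0.12 in PD.SHR4 and 0.09 in PD. The log2 difference was 0.85 ± 0.12 (SE; 95% confidence interval 0.54 to 1.16; 1.80-fold). Its adjusted p of 0.0543 (limma) was the lowest among the members, and its unadjusted p ranked 87 of 8797. It passed with an intensity trend and robust shrinkage (limma adjusted p = 0.0253), without the dimmest 25% of probe sets (0.0349), after a further quantile normalisation (0.0479) and with array weights (0.0100), and over 12 alternatives the adjusted p reached 0.399.

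Acaa2, the soluble matrix thiolase that cleaves acetyl-CoA from the chain in the last step, measured 12.43 and 12.53 in the PD.SHR4 arrays, against 11.85, 11.66 and 11.76 in the PD arrays. Its log2 difference was 0.72 ± 0.12 (SE; 95% confidence interval 0.42 to 1.02; limma adjusted p = 0.0724). It passed with an intensity trend (limma adjusted p = 0.0247), without the dimmest probe sets (0.0473) and with array weights (0.00964), in a range up to 0.457 over 12 alternatives. Both thiolases of the list thus had larger differences than the 3 dehydrogenases, with confidence intervals that overlap.

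Hadh, the soluble dehydrogenase that oxidises shorter 3-hydroxyacyl-CoA, measured 11.80 and 11.79 in the PD.SHR4 arrays, against 11.55, 11.46 and 11.49 in the PD arrays. It had the tightest PD.SHR4 pair of the members, with an SD of 0.01. The log2 difference was 0.29 ± 0.11 (SE; 95% confidence interval 0.02 to 0.56; limma adjusted p = 0.317).

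Ordered by size, the differences ran Cpt1a, Hadhb, Acaa2, Cpt2, Acadvl, Acadm, Slc25a20, Hadh and Acadl. The confidence interval of each member overlapped that of its neighbour in this order, and the interval of Cpt1a lay above that of Hadh and of Acadl, though no difference between members was tested. Among the arrays, PD.SHR4 array 2 was above PD.SHR4 array 1 in 8 of 9 members, all but Hadh. PD array 3 was the highest PD array in 5 members and the lowest in none, and PD array 1 was the lowest in 6 and the highest in 3 (Cpt1a, Hadh and Acaa2). The members' median deviation from the strain mean was 0.05 for PD.SHR4 array 2 and 0.04 for PD array 3, beside a median difference between strains of 0.43.

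**Figure D2:**
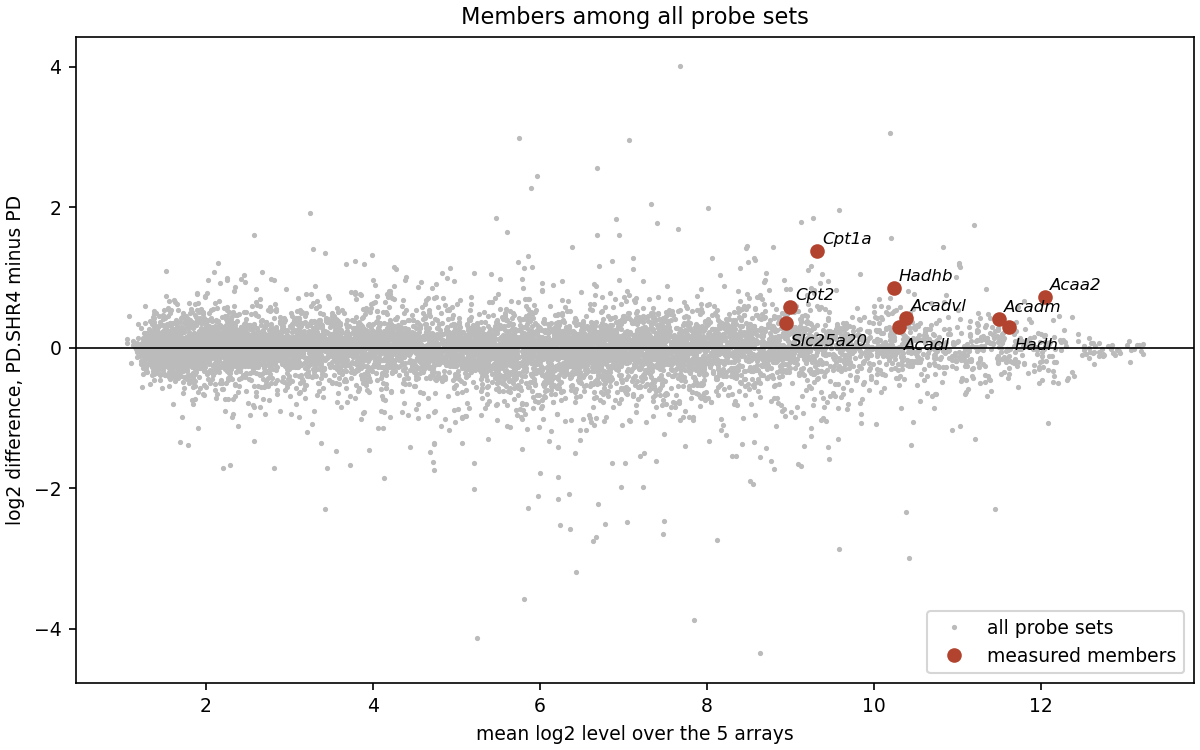
Log2 difference, PD.SHR4 minus PD (vertical axis), against the mean log2 level over 5 arrays (horizontal axis) for all 8797 probe sets (grey) and the 9 measured members (red). The members lie on the bright side, all above 0, from 0.29 to 1.37, within the cloud of other probe sets.

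Of the other mitochondrial genes of fatty acid oxidation, 19 were measured of 28 listed. None passed the test, 13 had values above 0 and 6 below, and the median log2 difference was 0.12. Leaving out PD array 1 gave a median of 0.058, and leaving out PD array 2 gave 0.218. Both PD.SHR4 arrays lay above all PD arrays in 8 of the 19, against 14.8% of all probe sets and 25.9% of those at least as bright as the lowest member. At an unadjusted p under 0.05 there were 3, all higher in PD.SHR4, against 5.84% of all probe sets, dim ones included. The 3 were auxiliary or last-step enzymes. Eci1, the isomerase that lets unsaturated chains re-enter the spiral, measured 11.10 and 11.16 in the PD.SHR4 arrays, against 9.80, 8.77 and 10.16 in the PD arrays, a log2 difference of 1.56 ± 0.40 (SE, limma adjusted p = 0.169). PD array 2 lay lowest, and without it the difference was 1.15 (limma adjusted p = 0.0680), while the replicate block gave 1.85 (limma adjusted p = 0.00853). Its adjusted p ranged up to 0.586 over 12 alternatives.

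Decr1, the reductase needed for polyunsaturated chains, measured 10.82 and 10.96 in the PD.SHR4 arrays, against 10.20, 9.77 and 10.27 in the PD arrays (log2 difference 0.81 ± 0.18 SE, limma adjusted p = 0.131). Acat1, the acetoacetyl-CoA thiolase, measured 10.36 and 10.37 in the PD.SHR4 arrays, against 9.62, 9.86 and 9.82 in the PD arrays (log2 difference 0.60 ± 0.13 SE, limma adjusted p = 0.113). Hsd17b10, a dehydrogenase of short and branched chains, had a log2 difference of 0.26 ± 0.11 (SE, limma adjusted p = 0.398). Echs1, the short-chain hydratase of the second step, chosen after its values were seen, was lower in PD.SHR4, at 11.21 and 11.13 in the PD.SHR4 arrays, against 11.35, 11.47 and 11.36 in the PD arrays (log2 difference -0.23 ± 0.11 SE, limma adjusted p = 0.471). Eci2, an isomerase like Eci1 and likewise chosen after its values were seen, measured 10.23 and 10.32 in the PD.SHR4 arrays, against 10.20, 10.29 and 10.36 in the PD arrays, which overlapped (log2 difference -0.0080 ± 0.12 SE, limma adjusted p = 0.987).

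The 4 measured dehydrogenases outside the members had differences on both sides of 0, with a median of -0.03 and overlapping arrays in each. Acads, the short-chain enzyme, measured 9.03 and 8.84 in the PD.SHR4 arrays, against 8.87, 8.93 and 8.88 in the PD arrays. Acadsb, which acts on short branched chains, had a log2 difference of 0.28 ± 0.19, Acad9, better known for its part in assembling respiratory complex I, -0.14 ± 0.14, and Ivd, the isovaleryl-CoA dehydrogenase of leucine breakdown, -0.10 ± 0.16 (all SE). Their adjusted p (limma) lay between 0.603 and 0.937.

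The electron transfer proteins that take up the electrons of the dehydrogenases had small positive differences, 0.09 for Etfa, 0.12 for Etfb and 0.25 for Etfdh, with adjusted p (limma) between 0.482 and 0.816. In the list of carnitine supply and other acyltransferases (6 measured of 9), the median was 0.12. Cpt1b, the muscle form of the outer acyltransferase, was dim, at 3.63 and 3.82 in the PD.SHR4 arrays, against 3.31, 3.43 and 3.58 in the PD arrays. The carnitine synthesis enzymes Aldh9a1 and Bbox1 had log2 differences of 0.29 ± 0.14 and 0.07 ± 0.19, and Crat, which moves short acyl groups, 0.18 ± 0.22 (all SE, limma adjusted p between 0.454 and 0.937 for the 4 named). Directions of Acads, Ivd, Bbox1 and Crat turned in at least 1 alternative fit.

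**Figure D3:**
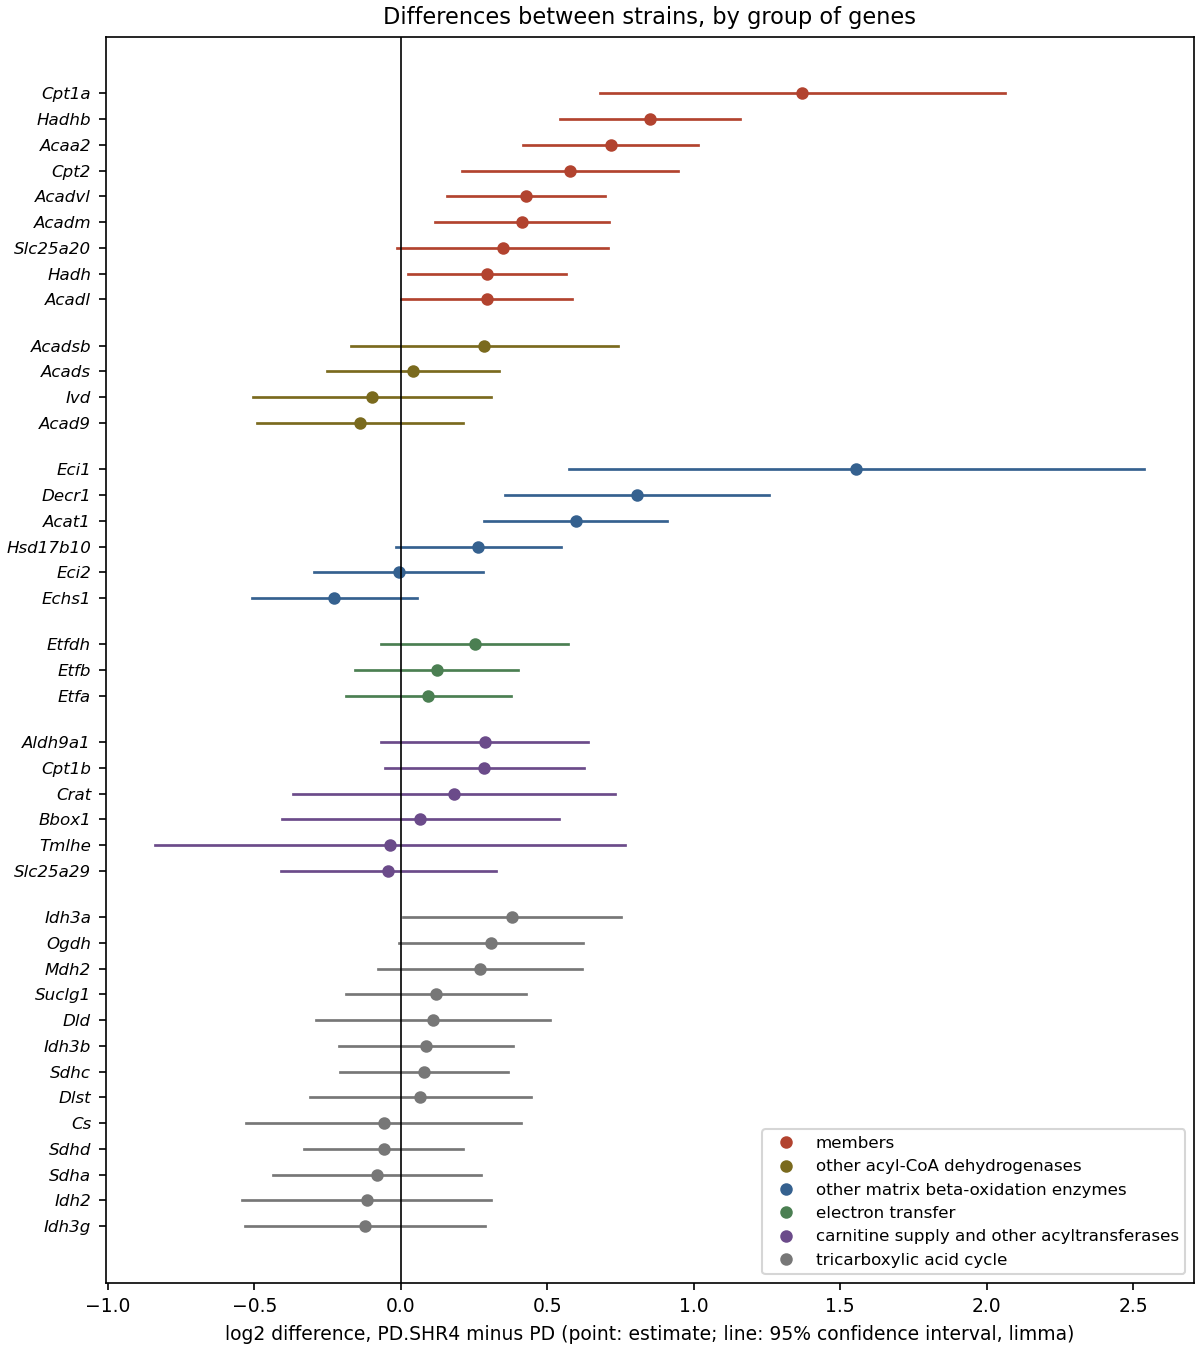
Log2 difference, PD.SHR4 minus PD (horizontal axis), with its 95% confidence interval from limma, for the 9 members (red, top) and for the measured genes of 5 other lists below. The members run from 0.29 to 1.37. Eci1 (1.56) lies above all of them, and Decr1 (0.81) and Acat1 (0.60) lie within their range. The dehydrogenases outside the members lie between -0.14 and 0.28.

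The tricarboxylic acid cycle takes up the acetyl-CoA that beta-oxidation releases and shares the matrix with it. Of its 13 measured genes none passed, and 8 had values above 0 and 5 below. Both PD.SHR4 arrays lay above all PD arrays in 3 of the 13, against 14.8% of all probe sets and 25.9% of those at least as bright as the lowest member. The median log2 difference was 0.08. The largest were Idh3a, a subunit of the NAD-linked isocitrate dehydrogenase (0.38 ± 0.15), Ogdh, of the oxoglutarate dehydrogenase complex (0.31 ± 0.13), and Mdh2, the malate dehydrogenase (0.27 ± 0.14; all SE, limma adjusted p between 0.353 and 0.488). Suclg1, of succinyl-CoA synthase, had 0.12 ± 0.12 (SE, limma adjusted p = 0.772). Of the 6 listed genes of propionyl-CoA disposal, which handles the last carbons of odd chains, Pccb alone was measured, at a log2 difference of -0.10 ± 0.11 (SE). The differences between these lists and the members were not tested.

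Among the 9 measured genes that set the level of malonyl-CoA or act on it through AMPK, none passed, 3 had log2 differences above 0 and 6 below, with a median of -0.17. Over all probe sets, 4400 of 8797 lay above 0 and 4397 below. Acaca, the cytosolic acetyl-CoA carboxylase that makes malonyl-CoA for synthesis, measured 7.17 and 7.27 in the PD.SHR4 arrays, against 7.73, 8.96 and 8.05 in the PD arrays. Acacb, the carboxylase at the mitochondrial surface, measured 6.44 and 6.21 in the PD.SHR4 arrays, against 6.84, 8.31 and 7.13 in the PD arrays. PD array 2 was the highest for both. The log2 differences were -1.02 ± 0.36 for Acaca and -1.10 ± 0.43 for Acacb (SE, limma adjusted p = 0.284 and 0.349), and without PD array 2 they were -0.67 and -0.66.

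Prkaa2, a catalytic subunit of AMPK, the kinase that inhibits both carboxylases, measured 9.07 and 9.23 in the PD.SHR4 arrays, against 8.55, 8.75 and 8.51 in the PD arrays (log2 difference 0.55 ± 0.13 SE, limma adjusted p = 0.156). Prkab1, a scaffold subunit of the same kinase, measured 8.59 and 8.07 in the PD.SHR4 arrays, against 8.72, 8.97 and 8.78 in the PD arrays (log2 difference -0.49 ± 0.19 SE, limma adjusted p = 0.332). Its difference was -0.753 without PD.SHR4 array 1 and -0.228 without PD.SHR4 array 2. The subunits of this kinase thus lay on both sides of 0.

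Of 10 measured genes of transcriptional control none passed, 7 had values above 0 and 3 below, and the median log2 difference was 0.18. Ppara, the nuclear receptor through which fatty acids raise transcription of beta-oxidation genes, measured 8.98 and 9.42 in the PD.SHR4 arrays, against 7.23, 7.71 and 6.70 in the PD arrays. Its PD arrays spread by an SD of 0.50, and its log2 difference was 1.99 ± 0.31 (SE, limma adjusted p = 0.0606). With the replicate block it was 1.73 and passed (limma adjusted p = 0.00261), in a range up to 0.388 over 12 alternatives, 6 of which passed.

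Creb3l3, a liver transcription factor of fasting lipid metabolism, had a log2 difference of 0.58 ± 0.14, Rxra, the partner of PPAR-alpha on DNA, 0.24 ± 0.11, and Esrra, a receptor that drives mitochondrial genes, 0.24 ± 0.11 (all SE, limma adjusted p between 0.161 and 0.444). In each of the 3, named for their small p, both PD.SHR4 arrays lay above all PD arrays. This held for 6 of the 10 measured genes of the list, against 14.8% of all probe sets.

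**Figure D4:**
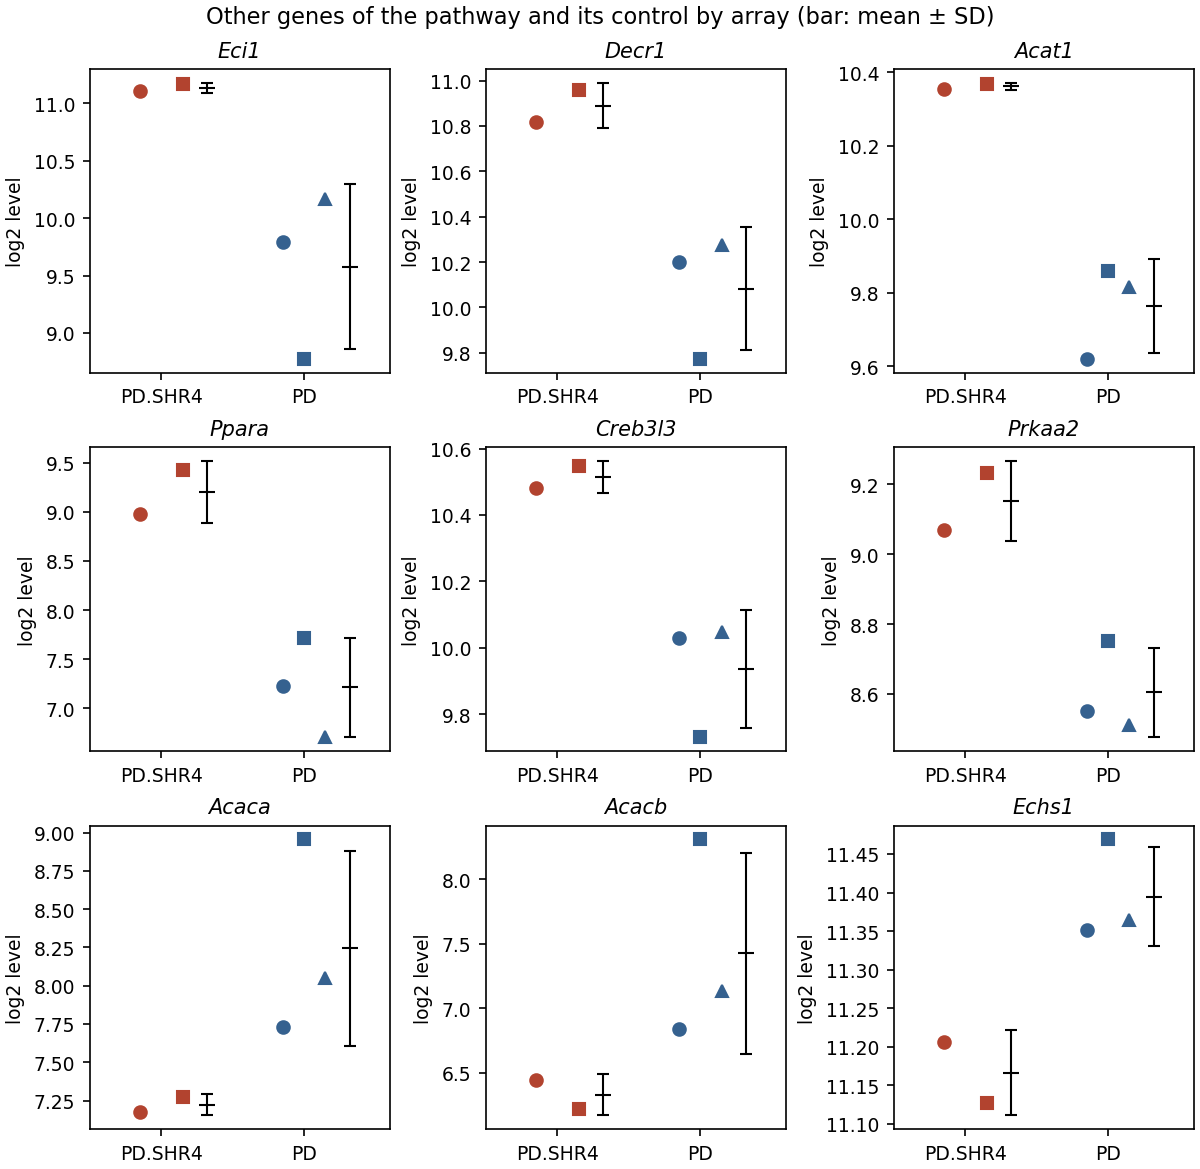
Log2 level (vertical axis, 1 scale per panel) in the PD.SHR4 arrays (red) and PD arrays (blue) of 9 genes outside the member list; symbols mark arrays 1 (circle), 2 (square) and 3 (triangle), and the bar is the mean ± SD. Eci1, Decr1, Acat1, Ppara, Creb3l3 and Prkaa2 lie higher in PD.SHR4, and Acaca, Acacb and Echs1 lower, with PD array 2 the lowest PD array for Eci1 and Decr1 and the highest for Acaca and Acacb.

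Genes whose pattern over the 5 arrays was nearest to that of Cpt1a were sought by the root mean square distance after each gene was centred on its own mean. The 5 nearest were Usp2, a deubiquitinase (distance 0.22), Slc1a2, a glutamate transporter (0.23), Tex36 (0.26), Foxa3, a liver forkhead factor (0.27), and Or7e169c, named as an olfactory receptor gene (0.28). Usp2 measured 7.21 and 7.28 in the PD.SHR4 arrays, against 5.99, 5.73 and 5.71 in the PD arrays, and rose (log2 difference 1.44 ± 0.14 SE, limma adjusted p = 0.0243). Tex36, at 4.80 and 4.77 in the PD.SHR4 arrays, against 3.59, 3.45 and 3.33 in the PD arrays, rose as well (1.33 ± 0.13 SE, limma adjusted p = 0.0243). Both lost the call without PD array 3 (limma adjusted p = 0.0803 for Usp2 and 0.0798 for Tex36), without either PD.SHR4 array (0.243 to 0.294) and without variance shrinkage (0.182 for Usp2 and 0.163 for Tex36). Slc1a2 (1.28 ± 0.22), Foxa3 (0.95 ± 0.20) and Or7e169c (1.08 ± 0.33; all SE) did not pass (limma adjusted p between 0.0708 and 0.225). Among members, Acaa2 was nearest to Cpt1a, with 38 genes outside the member list nearer, followed by Hadhb, with 44. With 5 arrays in 2 strains this likeness is mostly the strain difference itself.

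Markers of cell types were read as well, though in whole liver fewer cells of a type and less RNA per cell cannot be told apart. The summed linear level of 8 hepatocyte markers was 47855 to 48041 in the PD.SHR4 arrays, against 46269 to 48459 in the PD arrays, which overlapped. In this sum the brightest genes weigh most. Tat, the tyrosine aminotransferase of the same list, chosen after its values were seen, was lower in both PD.SHR4 arrays (11.16 and 10.90) than in any PD array (11.89, 11.30 and 11.73; log2 difference -0.61 ± 0.21 SE, limma adjusted p = 0.270). The 5 measured of 9 Kupffer cell and macrophage markers summed to 2600 to 2668 in the PD.SHR4 arrays, against 2922 to 3341 in the PD arrays. Log2 differences were -0.80 ± 0.12 for the immune adaptor Tyrobp and -0.71 ± 0.16 for the macrophage receptor Adgre1 (SE, limma adjusted p = 0.0572 and 0.124). Aif1 had -0.58 and Cd14 -0.22. Clec4f, the brightest of the 5, had -0.08. Its arrays overlapped between strains (10.38 and 10.51 in PD.SHR4, against 10.43, 10.47 and 10.68 in PD). Sums were also lower in PD.SHR4 for 4 of 7 lymphocyte markers (108 to 117, against 159 to 181) and for 4 of 6 stellate cell and fibroblast markers (366 to 376, against 417 to 542). In the stellate cell and fibroblast list, log2 differences were -0.48 for Pdgfrb and -0.46 for Col3a1. Those of Col1a2 (-0.12) and Des (0.17) came from arrays that overlapped between strains. In the lymphocyte list, Ptprc, which all leukocytes express, was the brightest gene, at 6.35 and 6.46 in PD.SHR4, against 7.01, 7.02 and 7.22 in PD. The others lay at or below 4.09, with log2 differences of -0.44 for Cd3d, -0.11 for Cd79b and 0.20 for Cd2, and the arrays of Cd79b and Cd2 overlapped between strains. Sums of 5 of 6 muscle markers were 103 to 108 in PD.SHR4, against 89.0 to 99.9 in PD, from probe sets whose mean levels were 2.05 to 5.53. Of these, only Acta1 did not overlap between strains (5.74 and 5.65 in PD.SHR4, against 5.40, 5.32 and 5.53 in PD). The arrays of Ckm, Myl1, Tnnt3 and Mb overlapped. The sums overlapped between strains for 2 of 5 cholangiocyte and 3 of 4 adipocyte markers. Of the cholangiocyte markers, Krt19 was higher in both PD.SHR4 arrays (5.08 and 5.15) than in any PD array (4.88, 4.63 and 4.34). The arrays of the brighter Epcam overlapped between strains (log2 difference -0.23). Endothelial and erythroid markers were not analysed here, and no marker measured was at 0. The part of these markers in the differences of the beta-oxidation genes was not tested.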

How the data were processed

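Liver RNA of 2 rat strains was measured on Affymetrix Rat Exon 1.0 ST arrays, 2 for PD.SHR4 and 3 for PD. The deposited table holds log2 values for 8797 core-gene probe sets, which the authors computed with RMA in Expression Console, per the labels, and Partek is also named in the submitters' processing notes. RMA models background, equalises array distributions and summarises a gene's probes. The genome build, annotation release and software versions were not given in the sources used here. There are no detection calls, and with 5 arrays their number limits the precision.

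Gene names came from GEO's platform annotation, which gave 7603 probe sets 1 symbol, 409 several and 785 none, with 7584 gene IDs matched to RefSeq's GRCr8 table. Where a gene had several probe sets, the brightest stood for it. Each probe set was fitted on strain alone, leaving 3 residual degrees of freedom, by lmFit and eBayes of limma 3.58.1 (R 4.3.3). The two-sided p-values were adjusted by Benjamini-Hochberg over all probe sets at a threshold of 0.05, and the script was tested on simulated data. Lists were described by counts and medians. The fit was repeated with 1 array left out, with the replicate block, without shrinkage, with an intensity trend, a filter on dim probe sets, other scalings, array weights or a 1.5-fold limit. Deviations of same-numbered arrays correlated at r = 0.050 and 0.082, and those of PD.SHR4 array 1 and PD array 3 at 0.047. The 2 PD.SHR4 arrays deviate by equal and opposite amounts, so these values cannot decide whether arrays were paired. Nothing in the labels says that a number marks a shared source.

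The members and lists were chosen with earlier results of these data known. Named were all members, up to 4 genes of each other pathway list by smallest p and any past the threshold, the 5 genes most like Cpt1a, and Cd36; Echs1, Eci2, the cell markers named and the mean level used for the share among bright probe sets were chosen after their values were seen.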

Additional observations from a re-analysis of the deposited data

How the results depend on the processing

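All 9 members kept a difference above 0 in all 108 alternative values, but most of these fits could not turn a direction. With both PD.SHR4 arrays above all PD arrays, leaving out, blocking or weighting arrays keeps a member's difference above 0. The variance settings and the filter on dim probe sets leave the difference itself unchanged. The members' calls did not hold: 12 of the 108 passed, and Slc25a20, Cpt2, Acadl and Hadh passed in none. The number of members called was 0 in the fit as reported, 1 with the replicate block and after a further quantile normalisation, 2 with an intensity trend or without the dimmest probe sets, 5 with array weights, and 0 to 1 when 1 array was left out (Cpt1a without PD array 1). Their median difference stayed between 0.41 and 0.48. Among the other oxidation genes the count was 1 with the replicate block (Eci1) and 2 with array weights. The count over all probe sets was 82, and 163 with the replicate block, 2 without shrinkage, 151 with an intensity trend, 149 without the dimmest 25%, 819 with array weights and 0 to 55 when 1 array was left out (limma; 0 without either PD.SHR4 array, with 710 to 737 at an unadjusted p under 0.05). Calls higher in PD.SHR4 were 29.3% of all calls, 42% after quantile normalisation and 41% after median centring, which moved the median of all probe sets by 0.02 and 0.05. The replicate block left 1 residual degree of freedom, its pairing is not given by the labels, and apart from Cpt1a, Eci1, Ppara and Slc1a2 it moved no single gene named here past the threshold or back. The Cpt1a over Cpt2 ratio difference was 0.61 to 1.12 without 1 array. Of 575 alternative values of 48 single genes, 570 kept their direction, a count that includes fits in which the direction could not change. Those that did not were Acads (-0.054 to 0.135 when 1 array was left out, negative without PD.SHR4 array 1), Bbox1 (-0.080 to 0.218, negative without PD array 1), Crat (-0.089 with array weights) and Ivd (-0.215 to 0.016, positive without PD array 2, at 0.003, and without PD.SHR4 array 2). With 1 PD.SHR4 array left out, the lone array was assumed to vary like PD. The causes of these changes were not tested.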

Other observations

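PD array 2 was at the low or the high end of the PD arrays for several genes around the pathway. It was the lowest PD array for Cpt1a (8.37, against 9.31 and 8.63), Eci1 (8.77, against 9.80 and 10.16), Decr1 (9.77, against 10.20 and 10.27) and Creb3l3 (9.73, against 10.03 and 10.05). It was the highest PD array for Acaca (8.96, against 7.73 and 8.05), Acacb (8.31, against 6.84 and 7.13) and Ppara (7.71, against 7.23 and 6.70). The genes were chosen after their values were seen, and the values are given as a description of these 3 arrays. Among the remaining members, PD array 2 was the lowest PD array for Acaa2 and Hadh and the highest for Acadm. For Slc25a20, Cpt2, Acadvl, Acadl and Hadhb, it lay between the other 2 PD arrays. In the tricarboxylic acid cycle list it was the highest PD array for every measured gene but Ogdh. Its median over all probe sets (5.38) and its upper quartile (7.65) were the highest of the 5 arrays, while its lower quartile (2.84) was the lowest. The part of this wider spread of PD array 2 in the values above was not tested.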
